A study of Sus scrofa with 79 samples.

Results

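The genes described are APOA1, APOA4, APOC3, APOE and MTTP, which make and dress the lipoprotein particles that carry dietary fat out of the gut of the pig. They were chosen by name, through the RefSeq accession that the array gives for each probe. The choice used no rule on their values, but earlier results of these data were known. They took 8 of the 43603 probes on the array and 5 of 36787 genes, counting a gene by its symbol, its accession or its probe. APOA1, APOA4 and APOC3 had 2 probes each, and APOE and MTTP had 1 each.

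Fat taken up by the enterocytes of the small intestine is rebuilt into triglyceride and packed into chylomicrons, large lipoproteins that leave the cell towards the lymph. MTTP, the microsomal triglyceride transfer protein, loads lipid onto apolipoprotein B at the start of this assembly. APOA4 and APOA1 join the particle in the enterocyte, and APOA1 is also the main protein of high density lipoprotein. APOC3 slows the breakdown of triglyceride-rich particles in the circulation. APOE is the ligand through which remnant particles are taken up by the liver, and it is also made by macrophages. In the RefSeq pig assembly Sscrofa11.1, APOA4, APOC3 and APOA1 follow each other between APOA5 and SIK3, and the long non-coding RNA LOC106504887 overlaps APOA4. APOE lies apart from them, between TOMM40 and APOC4.

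Expression was measured on 79 one-colour Agilent arrays. Of these, 67 held RNA of jejunum or ileum at day 8, 55 or 176 after birth and 12 held RNA of blood at day 8. Each tissue, day and treatment had 4 arrays, except for 5 tissue groups with 3. The sows were of the TOPIGS20 (GY × NL) line, the piglets of each litter were split over the treatments and stayed with the mother sow, and an array of day 8 held a pool of 4 piglets. The design gives 4 pools for each day and treatment. T1 piglets were handled only when blood was drawn, T2 piglets were injected under the skin with tulathromycin, a macrolide antibiotic, at 2.5 mg/kg on day 4, and in T3 this injection was combined with docking, clipping and weighing. The housing and feed of the animals at days 55 and 176 are not given in the sources used here.

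Values are quantile-normalized log2 signals, so that 1 unit is a 2-fold difference. Every one of the 8 probes was well above background on all 67 tissue arrays. A gene was called where the adjusted p of limma (Benjamini-Hochberg over all genes) was below 0.05 and the difference was over 1.5-fold, and a difference of differences where the adjusted p was below 0.05. No level is set against that of another gene, because the probes differ.

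The segment labels were checked with GATA4, a transcription factor of the proximal small intestine that is lost in the distal ileum. At day 55 the GATA4 signal was 5.88 to 8.25 in jejunum and 1.66 to 3.99 in ileum. At day 176 it was 5.01 to 8.91 in jejunum and 1.69 to 4.91 in ileum. In jejunum the 5.01 was on T3 pool 4 and the 8.91 on T2 pool 8, arrays with lost spots that are described below. The arrays labelled ileum of day 8 did not show low GATA4, with 6.13 to 8.30 against 7.03 to 8.27 in jejunum (limma adjusted p = 0.536). FABP6, the ileal bile acid binding protein, was chosen after its values were seen, and at day 8 it ranged from 5.62 to 16.48 in ileum and from 5.82 to 16.16 in jejunum, with a difference between the tissues of the same pool of -1.57 to 1.56. FABP6 was not called between the tissues at day 8, 55 or 176 (limma, adjusted p = 0.986, 0.420 and 0.120), so that it does not set day 8 apart. Its lowest jejunum values of day 176, 7.52 and 12.10, were on the same T2 pool 8 and T3 pool 4 arrays. The mean profiles of jejunum and ileum correlated over 30816 genes with r = 0.995 at day 8, 0.964 at day 55 and 0.974 at day 176. All comparisons with the arrays labelled ileum of day 8 therefore rest on arrays that did not show the GATA4 difference of the later days.

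**Figure D1:**
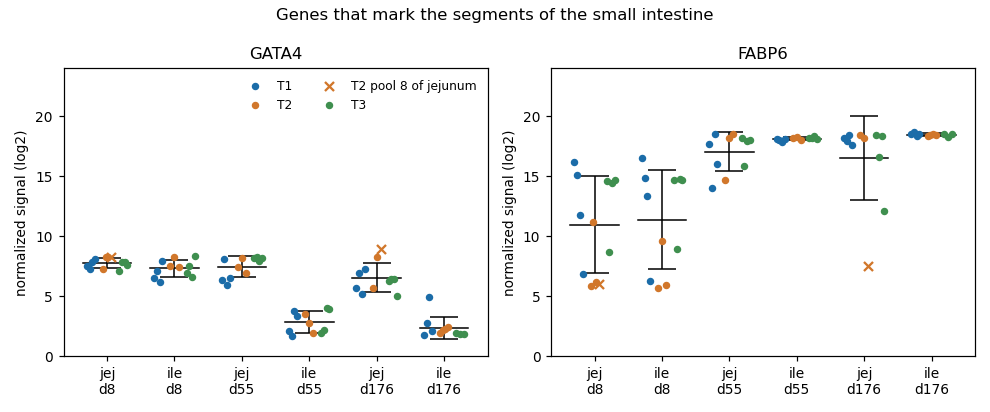
Normalized log2 signal of GATA4 (left) and FABP6 (right) on each jejunum and ileum array of days 8, 55 and 176, coloured by treatment, with the mean and SD of each set. GATA4 was between 1.66 and 4.91 on the ileum arrays of days 55 and 176 and between 6.13 and 8.30 on the arrays labelled ileum of day 8.

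The authors' table of normalized values carried other set names than the scanner files for the tissues of days 8 and 55. Its columns named jejunum day 8 held the scanner values labelled jejunum day 55 for 11 of 12 arrays, its ileum day 8 columns those of jejunum day 8, its ileum day 55 columns those of ileum day 8, and its jejunum day 55 columns those of ileum day 55. Treatments and pools were the same in both, and the columns of blood and of day 176 matched their own arrays. The scanner labels are used here. Under the names of the table, the set of day 55 with low GATA4 would be jejunum. The comparison of jejunum and ileum and the treatments at day 176 do not depend on this choice, nor do the treatments within blood. Treatments within a tissue set of day 8 or 55 compare the same arrays, but the tissue or day given to them changes. The comparisons of blood with jejunum and ileum of day 8 do depend on it, and they were not run under the names of the table. Nor were the treatment differences between tissues, and the tests of markers and of other listed genes, that involve day 8 or 55.

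Some arrays had lost bright spots, counted as spots more than 4 log2 units below the median of the other arrays of the same tissue and day. Jejunum day 176 T2 pool 8 had lost 1137 of 7904 bright spots (14.4%), jejunum day 8 T2 pool 8 had lost 346, jejunum day 176 T3 pool 4 had lost 280, and no other tissue array had lost more than 48. On jejunum day 176 T2 pool 8 the unnormalized signal of 1 APOA4 probe was 5.09, against 12.90 to 17.03 on the other arrays of that tissue and day, while the other APOA4 probe was at 16.10. The pairs of probes correlated over the 67 arrays with r = 0.899 for APOA1, 0.832 for APOA4 and 0.995 for APOC3, and without both jejunum T2 pool 8 arrays with r = 0.987, 0.941 and 0.995. Without both jejunum T2 pool 8 arrays 5 of 85 results of the 5 genes that involve day 176 changed their call, and each is given beside its result. Without jejunum day 176 T3 pool 4 the call changed for 1 of 85, MTTP in ileum between T3 and T1. The APOA1 probe that carried an outlier flag on ileum day 176 T3 pool 2 was left out of the tissue values.

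At day 176, when GATA4 separated the tissues, APOA1, APOA4, APOC3 and MTTP were higher in jejunum and APOE was higher in ileum. All 5 genes were called, 4 higher in jejunum and 1 lower. Over all genes tested 28.8% were called at this day, 14.8% higher in jejunum and 14.0% lower. The share of all genes whose tissues did not overlap was not counted at any day.

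APOC3 was at 13.86, 15.18 and 16.60 (lowest, median and highest of 11 arrays) in jejunum and at 9.06, 9.89 and 11.50 in ileum. Every jejunum array was above every ileum array. The difference was 5.04 ± 0.30 (SE), or 32.8-fold (limma, adjusted p = 1.73e-19). APOA1 was at 16.75, 17.83 and 18.64 in jejunum and at 14.45, 15.48 and 16.04 in ileum. The tissues did not overlap for this gene either, and the difference was 2.42 ± 0.16, or 5.35-fold (limma, adjusted p = 6.87e-18).

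MTTP was at 15.48, 15.74 and 16.08 in jejunum and at 14.00, 14.48 and 15.10 in ileum, again without overlap. The difference was 1.26 ± 0.10, or 2.40-fold (limma, adjusted p = 2.07e-14), which was the smallest of the called differences at this day. APOA4 was at 11.23, 15.63 and 17.47 in jejunum and at 12.43, 13.92 and 15.10 in ileum. For APOA4 8 of 11 jejunum arrays were above all ileum arrays, and jejunum T2 pool 8 was below all of them. The difference was 1.63 ± 0.32 with that array and 2.08 ± 0.27 without the pool 8 arrays (limma, adjusted p = 5.07e-05 and 1.59e-08).

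APOE ran the other way. It was at 5.69, 8.32 and 10.78 in jejunum and at 10.9997, 11.68 and 12.40 in ileum, and every jejunum array was below every ileum array. The difference was -3.12 ± 0.33, which was 8.68-fold higher in ileum, and -2.87 ± 0.33 without the pool 8 arrays (limma, adjusted p = 2.90e-11 and 4.26e-10).

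**Figure D2:**
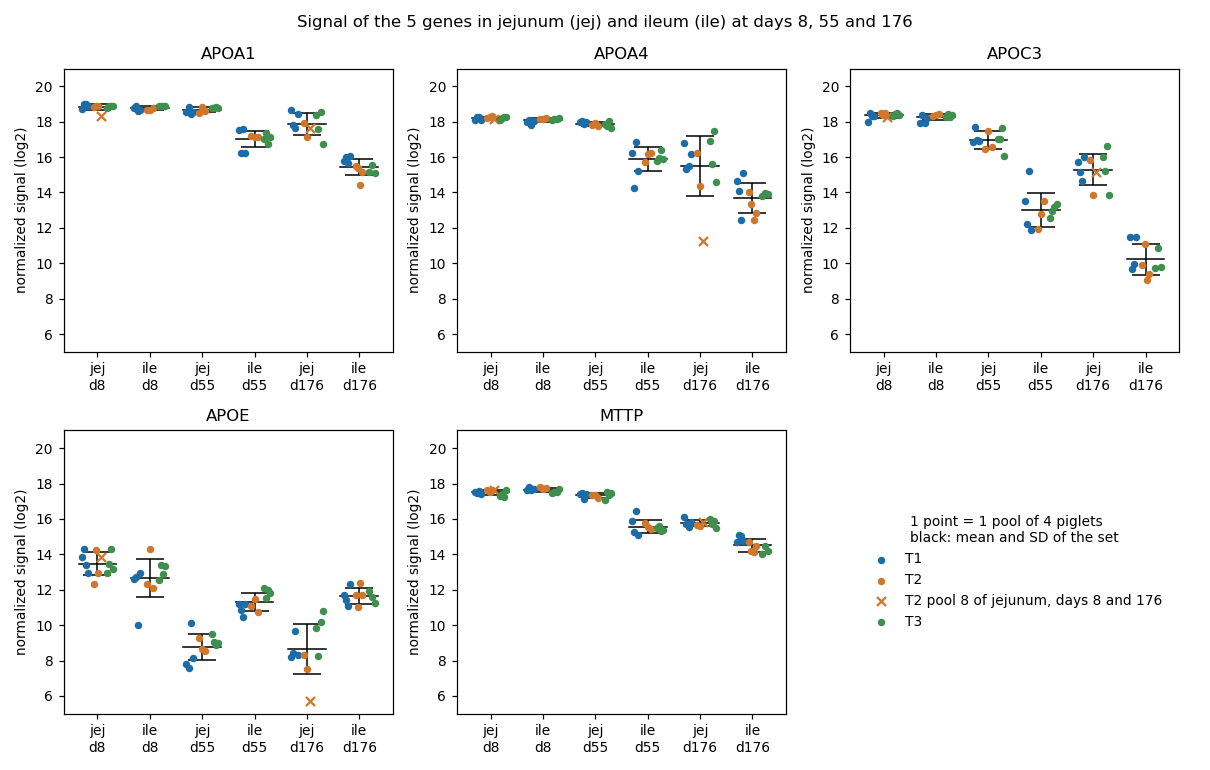
Normalized log2 signal of APOA1, APOA4, APOC3, APOE and MTTP on each of the 67 jejunum and ileum arrays by day, coloured by treatment, with the mean and SD of each set. APOC3 in ileum runs from 17.90 to 18.44 at day 8 down to 9.06 to 11.50 at day 176, and APOE in jejunum drops between day 8 (12.32 to 14.33) and day 55 (7.59 to 10.13).

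Jejunum and ileum of day 176 shared 1 slide, which held jejunum T3 and ileum T1. Within it jejunum T3 minus ileum T1 was called for all 5 genes, against 14.9% of all genes, with 4.75 for APOC3, 1.95 for APOA1, 2.08 for APOA4, 0.87 for MTTP and -1.87 for APOE (limma, adjusted p from 6.76e-10 to 0.0111). The pool 8 arrays were not on that slide, but T3 pool 4 with its 280 lost spots was. Without it the 5 genes were still called, with 5.27 for APOC3, 2.30 for APOA1, 2.59 for APOA4, 0.97 for MTTP and -2.21 for APOE (limma, adjusted p at most 0.00523). It compares groups that also differed in treatment.

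Markers of cell types moved with the same contrast. Of 6 enterocyte markers tested, 5 were higher in jejunum at day 176, and their mean log2 signal was 15.21 to 16.12 in jejunum against 14.20 to 14.96 in ileum. Of 4 macrophage markers, 3 (CD163, CD14 and C1QA) were lower in jejunum, with a mean of 6.74 to 11.21 in jejunum against 10.96 to 12.06 in ileum. Without the pool 8 arrays 2 were lower and the lowest jejunum mean was 8.59. C1QA then was at -1.17 ± 0.58 (limma, adjusted p = 0.112), and its call was also lost without jejunum T3 pool 4. Neutrophil markers were lower in jejunum in 3 of 4 genes, T and B cell markers in 2 of 5, among them CD79A at -4.86 ± 0.62 (limma, adjusted p = 6.08e-09), and smooth muscle markers were higher in 2 of 4. Every enterocyte and macrophage marker was well above background on all 22 arrays of day 176, except CD14 and C1QA on 1 jejunum array each. Of 8 liver markers 1 was higher in jejunum, and the signal of ALB, serum albumin, was 2.57 to 4.28 in jejunum and 2.37 to 3.14 in ileum. In tissue RNA, fewer cells of a type and less RNA per cell cannot be told apart, and the part of these markers in the results was not tested.

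At day 55 all 5 genes were again called, against 39.8% of all genes (6164 genes higher in jejunum and 6095 lower of 30816), with APOE higher in ileum and the other genes higher in jejunum. APOC3 was at 16.05, 16.97 and 17.72 in jejunum and at 11.90, 12.93 and 15.23 in ileum, and the difference was 3.98 ± 0.30 (limma, adjusted p = 7.73e-16). APOA4 was at 17.67, 17.84 and 18.06 in jejunum and at 14.26, 15.95 and 16.84 in ileum, a difference of 1.98 ± 0.32 (limma, adjusted p = 1.02e-06). The jejunum arrays lay close together for APOA4 and the ileum arrays were spread over more than 2 units.

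MTTP differed by 1.78 ± 0.10 and APOA1 by 1.63 ± 0.16 at day 55 (limma, adjusted p = 1.95e-19 and 1.90e-12). APOE was at 7.59, 8.86 and 10.13 in jejunum and at 10.45, 11.22 and 12.08 in ileum, a difference of -2.50 ± 0.33 (limma, adjusted p = 6.83e-09). For none of the 5 genes did the tissues overlap at day 55, and in all 11 pools with both tissues the differences ran in the directions given. How many of all genes did the same was not counted. At this day 4 of 6 enterocyte markers were higher in jejunum, and 1 of 4 macrophage markers was lower. Of 8 liver markers 3 were higher and 1 lower, of 5 T and B cell markers 1 was higher and 1 lower, and of 4 neutrophil and of 4 smooth muscle markers 1 each was higher. Their part in the differences was not tested, and the markers were not run under the set names of the authors' table. Jejunum and ileum of day 55 were scanned in different sessions and shared no slide, so that session and tissue cannot be told apart at this day. Under the set names of the authors' table the differences of APOA1, APOA4, APOC3 and MTTP at day 55 turned sign (-1.73, -2.21, -5.29 and -2.10).

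At day 8 none of the 5 genes was called between the arrays labelled jejunum and ileum, against 2.50% of all genes, and on the slide that held jejunum T1 and ileum T3 no gene was called (0%). At an unadjusted p below 0.05 by limma 1 of the 5, APOE, passed. APOA1 was at 18.34 to 18.99 in jejunum and 18.61 to 18.90 in ileum, and APOA4 at 18.07 to 18.30 and 17.80 to 18.23. APOC3 was at 17.96 to 18.51 and 17.90 to 18.44, and MTTP at 17.24 to 17.66 and 17.46 to 17.81. The sets overlapped for every gene. APOA1, APOA4 and APOC3 lay near the top of the scale here. The brightest spot of the 5 genes reached 94.8% of the lowest saturation value of an array, and 0 of their spots were flagged as saturated. Quantile normalization also gave APOA1 the same value, 18.90, on all 4 ileum T3 arrays. Whether signals this high still follow the amount of RNA in proportion was not tested. The differences were 0.07 (95% interval -0.24 to 0.38) for APOA1, 0.10 (-0.54 to 0.73) for APOA4, 0.09 (-0.50 to 0.67) for APOC3 and -0.16 (-0.36 to 0.04) for MTTP. APOE was at 12.32, 13.44 and 14.33 in jejunum and at 10.02, 12.71 and 14.32 in ileum, and its difference of 0.80 ± 0.32 did not pass (limma, adjusted p = 0.135). Small shifts ran the same way in many pools. APOC3 was higher in the jejunum array in 11 of 11 pools, by 0.01 to 0.40, and MTTP was lower in 11 of 11 pools, with differences of -0.32 to -0.05. How often all pools ran the same way over all genes was not counted.

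**Figure D3:**
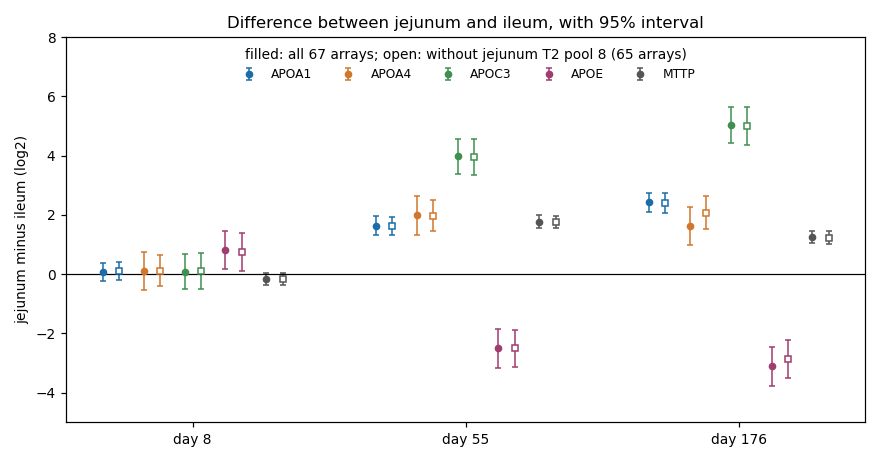
Jejunum minus ileum difference in log2 signal of each gene at days 8, 55 and 176, with 95% intervals of the fit. All 5 intervals of days 55 and 176 lie away from 0, with APOE below and the other genes above it.

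The difference between the tissues itself changed with day. From day 8 to day 55 the change of the jejunum minus ileum difference was called for all 5 genes, against 38.1% of all genes, with 3.89 for APOC3, 1.94 for MTTP, 1.88 for APOA4, 1.57 for APOA1 and -3.31 for APOE (limma, adjusted p at most 0.000723). From day 8 to day 176 it was again called for all 5, against 23.3%, with 4.95 for APOC3, 2.35 for APOA1, 1.53 for APOA4, 1.42 for MTTP and -3.92 for APOE (limma, adjusted p at most 0.00916). Both changes rest on the arrays labelled ileum of day 8, and on day 8 signals near the top of the scale for APOA1, APOA4 and APOC3. The APOA4 change to day 55 also averages 2 probes that differed in size at day 55. Under the set names of the authors' table the changes from day 8 to day 55 turned sign for all 5 genes (APOC3 -3.87, MTTP -1.94, APOA4 -1.87, APOA1 -1.52 and APOE 3.25), and so did that of APOE from day 8 to day 176 (1.52).

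From day 55 to day 176, 33.8% of all genes were called and the 5 genes moved less. The gap widened for APOA1 (0.79 ± 0.22, limma adjusted p = 0.00516) and narrowed for MTTP (-0.52 ± 0.15, limma adjusted p = 0.00545). The APOA1 value was 0.54 without ileum day 176 T3 pool 2 (limma, adjusted p = 0.0794), when its second probe also entered. It was 0.67 with slide as a random block (limma, adjusted p = 0.0774) and 0.37 with scaling to the 75th percentile (limma, adjusted p = 0.232). The APOC3 value of 1.06 ± 0.42 passed narrowly (limma, adjusted p = 0.0472), and leaving out a single array ended that call in 42 of 67 runs. Without the pool 8 arrays it was 1.03 (limma, adjusted p = 0.0627). APOA4 (-0.35 ± 0.46) and APOE (-0.61 ± 0.46) did not pass. The APOA4 value averages both probes, of which 1 was at 5.09 on jejunum day 176 T2 pool 8. Without the pool 8 arrays APOA4 still did not pass. With only the brightest probe of each gene APOA4 was at 0.92 and called (limma, adjusted p = 0.0429).

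In jejunum APOE and APOC3 were called lower at day 55 than at day 8, and APOA1, APOA4, APOC3 and MTTP were called lower at day 176 than at day 55. Between days 8 and 55 APOE fell by 4.70 ± 0.32 on the log2 scale, or 25.9-fold, without overlap (limma, adjusted p = 2.73e-18). APOC3 fell by 1.40 ± 0.29 (limma, adjusted p = 6.86e-05). APOA1 (-0.17), APOA4 (-0.33) and MTTP (-0.17) did not pass, so 2 of 5 were called lower against 18.9% of all genes. In T1 pools alone APOC3 was at -1.12 and did not pass (limma, adjusted p = 0.114). Under the set names of the authors' table the APOE change was 2.50 and called, and APOA1, APOA4 and MTTP were also called lower. Of all genes 39.9% were then called in either direction.

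Between days 55 and 176 the changes in jejunum were -2.53 ± 0.32 for APOA4 (-2.07 without the pool 8 arrays), -1.71 ± 0.30 for APOC3, -1.58 ± 0.10 for MTTP and -0.84 ± 0.16 for APOA1 (limma, adjusted p from 1.32e-17 to 1.87e-05). These were 4 of 5 genes, against 16.9% of all genes called lower. APOE changed by -0.26 ± 0.33 and did not pass. In T1 pools alone APOA1 was at -0.51 and did not pass (limma, adjusted p = 0.136). Under the set names of the authors' table APOA1 (0.80), APOC3 (2.27) and MTTP (0.20) turned sign, APOA4 (-0.55) was not called, and APOE (-2.76) was. Whether a gene changed more in the earlier or in the later interval was not tested. Over the whole span from day 8 to day 176 all 5 genes fell in jejunum, against 22.0% of all genes. APOE changed most (-4.95 ± 0.32) and APOA1 least (95% interval -1.31 to -0.69). Under the set names of the authors' table APOE was at -0.26 over this span and was not called.

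In the arrays labelled ileum all 5 genes fell between days 8 and 55, against 23.0% of all genes. The changes were -5.29 ± 0.30 for APOC3, or 39.1-fold, -2.21 ± 0.32 for APOA4, -2.10 ± 0.10 for MTTP, -1.74 ± 0.16 for APOA1 and -1.39 ± 0.33 for APOE (limma, adjusted p from 6.17e-24 to 0.000275). The 2 APOA4 probes fell unequally, from a mean of 18.12 to 17.03 and from 18.07 to 14.73. In T1 pools alone APOE was at -1.18 and did not pass (limma, adjusted p = 0.116). Under the set names of the authors' table none of these was called, against 2.10% of all genes.

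The interval from day 55 to day 176 did not, under the scanner labels, involve the arrays of day 8. The changes in ileum were -2.77 ± 0.30 for APOC3, -2.18 ± 0.32 for APOA4, -1.62 ± 0.16 for APOA1 and -1.06 ± 0.10 for MTTP (limma, adjusted p from 1.40e-11 to 4.15e-07). APOE was 0.36 ± 0.33 higher and did not pass. These were 4 of 5 genes against 12.9% of all genes called lower. Under the set names of the authors' table this interval does involve the arrays that the scanner labels as ileum of day 8. APOC3 was then at -8.06, APOA4 at -4.39, APOA1 at -3.35, MTTP at -3.16 and APOE at -1.03. All 5 were called, against 48.6% of all genes in either direction. Under the scanner labels, from day 8 to day 176 all 5 were called lower, against 22.7%, with -8.06 ± 0.30, or 267-fold, for APOC3, -4.39 ± 0.32 for APOA4, -3.36 ± 0.16 for APOA1, -3.16 ± 0.10 for MTTP and -1.03 ± 0.33 for APOE. In T1 pools alone the APOE change was -0.47 and did not pass (limma, adjusted p = 0.558).

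No slide and no scan session held tissue arrays of more than 1 day, so that day cannot be told apart from slide and session in any of these changes. Other lists moved with age too. T and B cell markers rose between days 8 and 55 in 4 of 5 genes tested in jejunum and in 5 of 5 in ileum, and smooth muscle markers fell in 3 of 4 and 4 of 4. The liver list, which holds genes made by hepatocytes such as ALB and TTR, fell in 2 of 8 genes and rose in 2 in jejunum, and fell in 5 and rose in 1 in ileum. AMBP, the precursor of a plasma protease inhibitor, fell by 5.75 in jejunum and fell by 5.96 in ileum, and F2, prothrombin, fell by 5.83 and fell by 6.59 (limma, adjusted p at most 4.14e-20), while ALB was low at day 8 already, at 2.13 to 3.25 in jejunum and 2.30 to 3.04 in ileum. The enterocyte list rose in 3 of 6 in jejunum, and fell in 2 and rose in 1 in ileum. Macrophage markers rose in 1 of 4 in jejunum and 2 of 4 in ileum, among them CD163 by 1.96 in ileum (limma, adjusted p = 4.35e-08), and neutrophil markers fell in 0 of 4 and 2 of 4. Between days 55 and 176 in jejunum, smooth muscle markers rose in 3 of 4, T and B cell markers rose in 1 and fell in 2 of 5, macrophage markers fell in 1 of 4, and 1 liver and 1 neutrophil marker rose. In ileum over that interval, neutrophil markers rose in 4 of 4, macrophage markers in 2 of 4 and T and B cell markers in 2 of 5, smooth muscle and liver markers rose in 1 and fell in 1 each, and 1 of 6 enterocyte markers fell. The part of these lists in the changes of the 5 genes was not tested. These marker changes rest on the scanner labels and were not run under the names of the authors' table.

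Treatment was compared within each tissue and day, as named by the scanner labels. At day 8 none of the 5 genes was called between any 2 treatments, against 0.0325% of all genes in jejunum and 1.65% in ileum, and 0 passed at an unadjusted p below 0.05 by limma. The largest differences were those of APOE in ileum, with T3 versus T1 at 0.97 ± 0.54 and T2 versus T1 at 0.83 ± 0.58 (limma, adjusted p = 0.332 and 0.560). APOE was at 12.63, 12.71, 10.02 and 12.96 in pools 9 to 12 of T1, at 12.31, 14.32 and 12.11 in the 3 pools of T2 and at 12.58, 13.38, 12.88 and 13.35 in the pools of T3. The low T1 value of pool 11 stood apart from the other 10 arrays. The other 4 genes differed between treatments by at most 0.26 at day 8.

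At day 55 none of the 5 genes was called either, while 9.81% of all genes in jejunum and 16.2% in ileum were, and again 0 passed unadjusted. The largest difference was that of APOE in ileum, T3 versus T1, at 0.92 ± 0.54 (limma, adjusted p = 0.270). APOE was at 11.22, 10.86, 10.45 and 11.18 in T1 and at 12.08, 11.55, 11.96 and 11.81 in T3, so that all T3 pools were above all T1 pools although the difference did not pass. These groups lay on different slides, and 42.4% to 52.0% of spots were well above background on the T3 arrays against 62.6% to 73.1% on those of T1. The part of this in the difference was not tested.

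At day 176, 2 of the 5 genes were called between treatments in jejunum, against 17.5% of all genes. APOA4 was at 16.79, 15.30, 15.48 and 16.20 in T1, at 16.21, 14.37 and 11.23 in T2 and at 16.88, 15.63, 17.47 and 14.60 in T3. The value of 11.23 is that of the damaged T2 pool 8 array. T2 versus T1 was at -2.00 ± 0.57 and T3 versus T2 at 2.21 ± 0.57 (limma, adjusted p = 0.0164 and 0.0165), and without the pool 8 arrays they were at -0.65 and 0.85 (limma, adjusted p = 0.679 and 0.666). The first call also ended without T1 pool 9 (-1.72), and the second without T3 pool 1 (1.96) or T3 pool 3 (1.77). In jejunum at this day T3 lay on another slide than T1 and T2, so that slide and T3 cannot be told apart.

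APOE in jejunum at day 176 was at 8.18, 8.43, 9.69 and 8.30 in T1, at 8.32, 7.50 and 5.69 in T2 and at 9.82, 8.28, 10.20 and 10.78 in T3. The lowest value is again that of T2 pool 8, and the T3 arrays lay on another slide than the T2 arrays. T3 versus T2 was at 2.60 ± 0.58 (limma, adjusted p = 0.00551) and at 1.85 ± 0.63 without the pool 8 arrays (limma, adjusted p = 0.166). Without those arrays none of the 5 genes was called between treatments in jejunum at this day. The 17.5% of all genes given above was counted with them.

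In ileum at day 176 none of the 5 genes was called, against 0.980% of all genes, and APOA1 and MTTP passed unadjusted for T2 and for T3 against T1. MTTP came closest, at 14.71, 15.10, 15.03 and 14.76 in T1, at 14.69, 14.21, 14.16 and 14.46 in T2 and at 14.00, 14.48 and 14.17 in T3. All T1 pools were above all pools of T3. T3 versus T1 was at -0.69 ± 0.18 (limma, adjusted p = 0.0549), and without the pool 8 arrays of jejunum, which share the estimate of the spread, at -0.68 with an adjusted p of 0.0406 by limma, which is a call. It was also called without jejunum T3 pool 4. These groups lay on different slides.

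**Figure D4:**
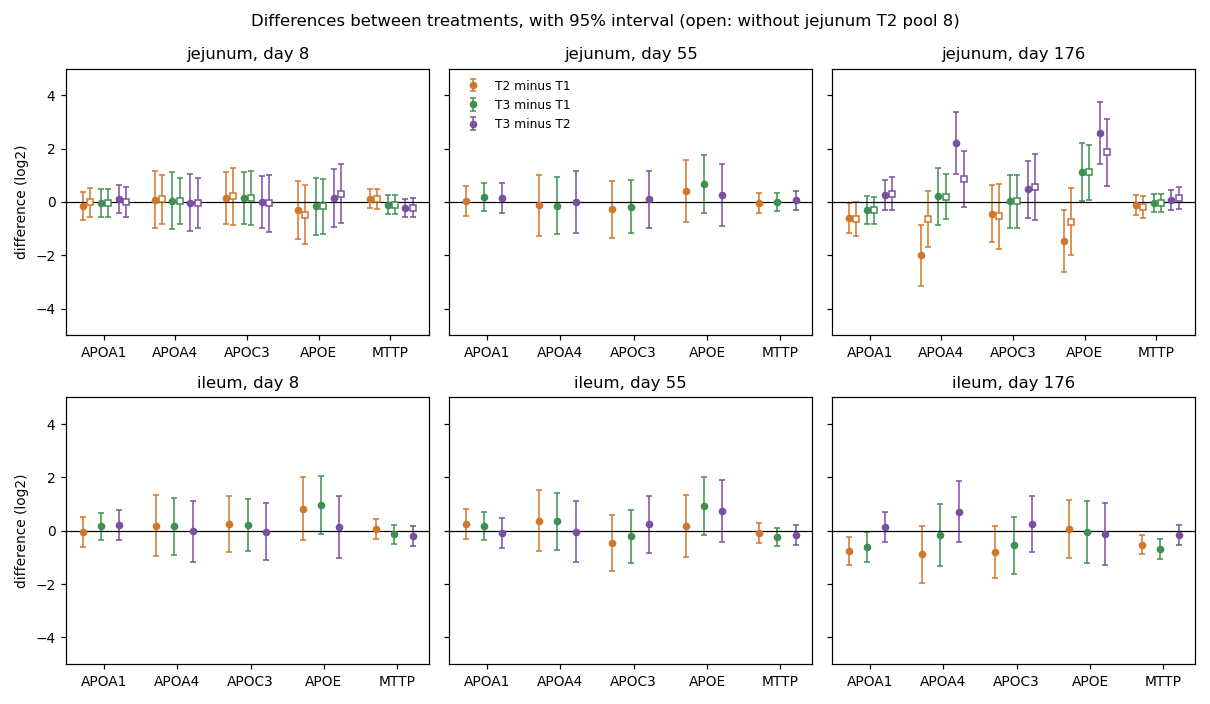
Differences in log2 signal between pairs of treatments for each gene, tissue and day, with 95% intervals of the fit. The largest differences are those of APOA4 and APOE in jejunum at day 176 that involve T2, whose 3 arrays include the damaged pool 8.

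Whether a treatment difference itself differed between jejunum and ileum was tested for each pair. None of the 5 genes was called at any day, against 0.0260% of all genes at day 8, 6.02% at day 55 and 4.90% at day 176. At days 8 and 55 these tests rest on the scanner labels and were not run under the names of the authors' table. Unadjusted, MTTP (T3 versus T1) and APOE (T3 versus T2) passed at day 176 and none at days 8 and 55. The largest value was that of APOE at day 176, T3 versus T2, at 2.71 ± 0.82 (limma, adjusted p = 0.137), and it was 1.97 without the pool 8 arrays (limma, adjusted p = 0.537).

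In blood of day 8 most probes of the 5 genes were not well above background. Of 12 blood arrays, APOE was well above background on 0, MTTP on 3, the APOA1 probes on 2 and 3, and the APOC3 probes on 0 and 3. Of the APOA4 probes 1 was well above background on all 12 arrays and the other on 1. All 5 genes were called lower in blood than in jejunum and than in ileum at day 8, against 34.0% and 33.4% of all genes called lower in blood (limma, adjusted p at most 5.01e-18). The comparisons of blood with tissue rest on the scanner labels of the day 8 tissues and were not run under the names of the authors' table.

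For probes that were not well above background on any blood array the blood level was replaced by the lowest signal well above background on each array, which gives a lower limit. APOE was at 10.95 to 13.10 in jejunum and 8.64 to 13.08 in ileum on the scale of all arrays of day 8, and at least 192-fold and 106-fold higher than in blood. The first APOC3 probe was at least 12319-fold higher in jejunum and 11920-fold higher in ileum. The blood arrays and the tissue arrays of each gene were far apart and did not overlap. The share of all genes without overlap between blood and tissue was not counted.

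The APOA4 probe that was well above background in blood was at 6.98 to 8.33 there, at 17.78 to 18.49 in jejunum and at 17.05 to 18.20 in ileum, a difference of 1632-fold and 1415-fold. The size depends on normalizing blood with the tissues, since without normalization between arrays it was 10832-fold and 9262-fold. The other APOA4 probe ranged from 0.95 to 7.18 in blood, so the pair of probes disagreed there. The T1 blood arrays of pools 9, 10 and 11 had lost 249, 161 and 177 bright spots. Blood and tissue were scanned in different sessions, which cannot be told apart from the difference between them.

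**Figure D5:**
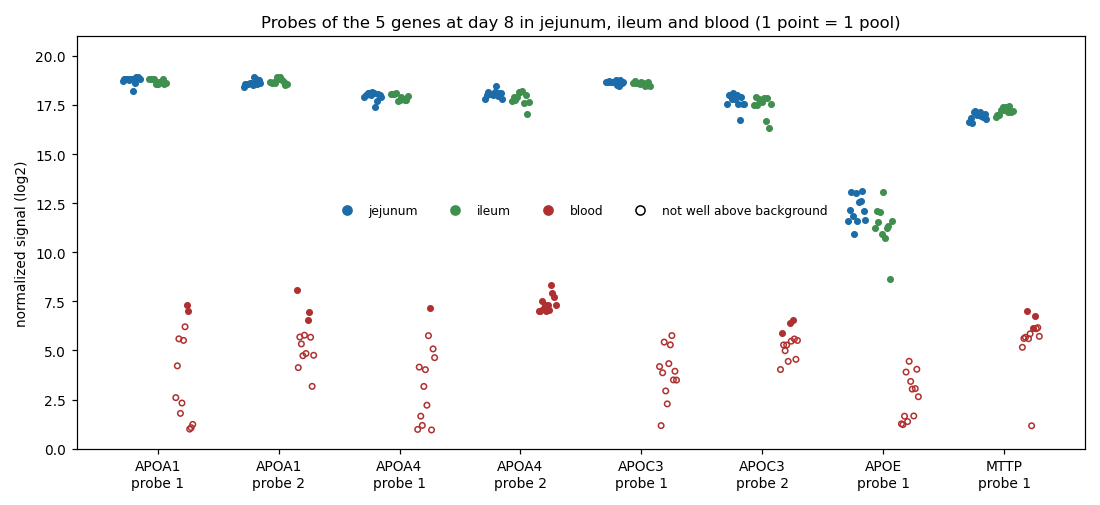
Log2 signal of each of the 8 probes on the jejunum, ileum and blood arrays of day 8, normalized together. For the APOA4 probe measured in blood, the 12 blood arrays lie between 6.98 and 8.33 and the tissue arrays between 17.05 and 18.49.

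Between treatments in blood none of the 5 genes was called, against 0.00694% of all genes, and 1 passed unadjusted. The largest difference was that of APOA4, T3 versus T1, at -0.93 ± 0.37 (limma, adjusted p = 0.608). In blood T1 lay on another slide than T2 and T3, so that slide and T1 cannot be told apart.

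APOA1, APOA4, APOC3 and MTTP moved together over the 67 tissue arrays, with r between 0.892 and 0.968 for each pair, and APOE did not move with them, with r between 0.03 and 0.27. These arrays share the tissue and day differences given above. Once the mean of each tissue, day and treatment was removed, r was 0.752 for APOA1 with APOC3, 0.707 for APOA1 with MTTP and 0.604 for APOA1 with APOA4 (0.724 without the pool 8 arrays). It was 0.286 for APOA4 with MTTP and -0.28 for APOE with MTTP.

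The genes with the most similar pattern were searched among 2223 genes with a RefSeq symbol by Pearson's r over the same 67 arrays. RBP2, GHR and CIDEC were most like APOA1 (r = 0.938, 0.936 and 0.926). RBP2 is the retinol binding protein of the enterocyte and CIDEC a lipid droplet protein. The same 3 genes came first for APOC3, in the order CIDEC, GHR and RBP2 (r = 0.964, 0.959 and 0.956). AQP11, CYP2D25 and SLC31A1 were most like APOA4 (r = 0.939, 0.911 and 0.908), and PFKFB1, ACSL3 and CIDEC most like MTTP (r = 0.950, 0.950 and 0.947). For APOE the closest were CTSH, a lysosomal cathepsin, GGTA1P and CERS4, a ceramide synthase, at lower values (r = 0.853, 0.838 and 0.833). Without both jejunum T2 pool 8 arrays the order changed, with CYP2D25 at rank 5 and SLC31A1 at rank 7 for APOA4, CIDEC at rank 5 for APOA1, and CERS4 at rank 1 for APOE, while the 3 genes of APOC3 and of MTTP kept their ranks.

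Of 75 other genes listed for apolipoproteins, chylomicron assembly, lipid uptake and esterification, lipoprotein receptors and enzymes, and transcription factors, 36 were on the array under that name and 33 were tested. APOB, the structural protein of the chylomicron, was not among them. At day 55, 25 of 33 were higher in jejunum and 3 lower, with a median difference of 1.11 against -0.03 over all genes, of which 39.8% were called. At day 176, 17 were higher and 3 lower, with a median of 0.76 against 0.07 over all genes, of which 28.8% were called. At day 8, 4 were higher and 0 lower, with a median of 0.30 against -0.02 over all genes, of which 2.50% were called. All results of these listed genes that involve day 8 or 55 rest on the scanner labels. They were not run under the names of the authors' table.

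GATA4 differed most at days 55 and 176 (4.64 ± 0.35 and 4.32 ± 0.35, limma adjusted p = 7.93e-16 and 9.53e-15). DGAT2, which makes triglyceride, was 3.50 ± 0.24 higher in jejunum at day 55, and APOA5, the neighbour of the cluster that activates lipoprotein lipase, was 2.18 ± 0.20 higher (limma, adjusted p = 4.42e-17 and 1.69e-13). All 10 genes tested of lipid uptake and esterification were higher in jejunum at day 55, against 6164 of all 30816 genes, and 7 of 10 at day 176, against 14.8%, among them FABP2, the intestinal fatty acid binding protein, by 2.64 ± 0.17 (limma, adjusted p = 1.64e-18). LRP8, a receptor for APOE, was lower in jejunum at day 176 by 2.87 units (-2.87 ± 0.25, limma adjusted p = 7.28e-14). At day 8 PLIN3, a lipid droplet coat protein, HNF4A, a transcription factor of the enterocyte, and ANGPTL4, an inhibitor of lipoprotein lipase, were higher in jejunum by 0.91, 0.68 and 0.67 (limma, adjusted p = 0.0252, 0.0115 and 0.0470).

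From day 8 to day 176, 20 of these 33 fell and 3 rose in jejunum, with a median of -0.93 against 0.13 over all genes, of which 22.0% fell. In ileum 24 fell and 3 rose, with a median of -1.17 against 0.07 over all genes, of which 22.7% fell. APOA2, a protein of high density lipoprotein, fell by 5.58 ± 0.44 in jejunum and fell by 6.68 ± 0.45 in ileum (limma, adjusted p = 3.39e-16 and 8.15e-19). Between days 8 and 55 APOA2 fell by 5.81 ± 0.44 in jejunum (limma, adjusted p = 1.27e-16). ACSL3, which activates fatty acids, and DGAT2 fell by 3.87 and 3.80 in jejunum and by 5.69 and 5.47 in ileum between days 8 and 176. LPL, lipoprotein lipase, rose by 2.49 ± 0.22 in jejunum between days 8 and 55 (limma, adjusted p = 5.54e-14). Between days 55 and 176, LCAT, which esterifies cholesterol on high density lipoprotein, fell by 2.35 ± 0.22 in jejunum, and in ileum LPL fell by 1.18 ± 0.23 (limma, adjusted p = 9.63e-13 and 3.98e-05).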

How the data were processed

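RNA of pig jejunum, ileum and blood was hybridised to 79 one-colour Agilent arrays. The authors deposited, for each spot, intensities as written by Agilent Feature Extraction 10.7.3.1, which had subtracted the background and removed spatial trends, and flags. The authors also deposited a table of log2 values, quantile normalized in GeneSpring per the methods, which was used to check the set names only.

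The processed intensities, with a lowest signal of 1, were put on the log2 scale. Control spots, and probes with an outlier flag on any array of the fit, were removed. Quantile normalization was done in 3 sets, the 67 tissue arrays, the 35 arrays of day 8 and the 12 blood arrays. Of 43603 probes, 41432 had a value on all tissue arrays, and 36717 passed a filter at the 20th percentile in all arrays of at least 1 group. Averaging by RefSeq symbol, accession or probe gave 30816 genes in the tissues, 32953 for day 8 with blood and 28832 in blood. All 8 probes of the 5 genes passed, except the flagged APOA1 probe in the tissues. Group means of tissue, day and treatment were fitted by limma 3.58.1 (R 4.3.3). In simulated data of the day 8 tissue comparison over 30816 genes, 71% of changes of 1 log2 unit and 95% of changes of 2 were called, with 9 false calls. The number of arrays limits the precision.

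Jejunum, ileum and blood of a day 8 pool came from the same animals per the methods, and tissues of a pool deviated together with r of -0.00056 to 0.427 (mean 0.176, against -0.0163 for other pools). Named were the 5 genes, the 3 genes most like each, and per comparison the 3 called pathway genes with the largest difference. Genes and lists were chosen with earlier results of these data known. None of 6 erythroid markers could be tested. Alternatives were other scaling, background correction (normexp on the median signal), filters, probe choices, blocks and arrays left out. No sequence is given.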

Additional observations from a re-analysis of the deposited data

Results flagged for a closer look

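Dixon's test was applied gene by gene within each group of 4 arrays, so that the sets of the 5 genes share arrays. In 8 of 79 sets of 1 gene and 4 arrays a single pool stood apart from the others, and chance gives about 5%. For APOA1 these were pool 3 of jejunum day 55 T3 (18.84), pool 8 of jejunum day 8 T2 (18.34) and pool 1 of jejunum day 8 T3 (18.77), where quantile normalization gives the brightest ranks of different arrays identical values. For APOC3 it was pool 10 of jejunum day 55 T1 (17.72). For APOE these were pool 11 of ileum day 8 T1 (10.02), pool 11 of jejunum day 176 T1 (9.69) and pool 4 of blood T3 (1.61), and for APOA4 pool 8 of blood T2 (3.77).

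The jejunum minus ileum difference changed from day 8 to day 55 by 1.57 for APOA1, 1.88 for APOA4, 3.89 for APOC3, -3.31 for APOE and 1.94 for MTTP. From day 55 to day 176 it changed by 0.79 for APOA1, 1.06 for APOC3 and -0.52 for MTTP. From day 8 to day 176 it changed by 2.35 for APOA1, 1.53 for APOA4, 4.95 for APOC3, -3.92 for APOE and 1.42 for MTTP. Each passed limma's test of the difference itself (adjusted p at most 0.0472).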

How the results depend on the processing

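For the 5 genes, 4522 results of leaving out 1 array kept their call or lack of one. In 49 the call was lost, 42 of them the APOC3 change from day 55 to day 176. A change of sign was counted only where there was a call, and 0 results had one. Treatment differences not called with all arrays were left out of this count, so calls gained among them do not appear in it. Leaving out arrays gave 0 to 1 genes called between treatments in ileum at day 176, 0 to 2 in jejunum at day 176, 1 to 3 for the change of jejunum minus ileum from day 55 to 176, and 0 to 2 for the treatment difference between tissues at day 176, where 2 were called without jejunum T2 pool 5 and 1 without pool 6. Without both jejunum T2 pool 8 arrays 0 genes were called in jejunum and 1 in ileum at day 176. The shares of all genes called between treatments, as given in the Results, are those of the fit with all arrays. In ileum at day 176, 1 was called with scaling to the 75th percentile, with a filter on signal over background, and with robust estimation on an intensity trend. In jejunum at day 176, 1 was called with the brightest probe or with days fitted apart, which cannot give differences between days. The change from day 55 to 176 was called for 1 gene, MTTP, with 75th percentile scaling or with slide as a random block, and APOA1 and APOC3 lost their calls. With T1 pools alone 1 gene was called from day 8 to 55 in jejunum. With the brightest probe the APOA4 change from day 55 to 176 was 0.92 instead of -0.35, and it was called (limma, adjusted p = 0.0429). With the pool number as a block, for the pairing of tissues of a pool, APOC3 from day 55 to 176 was 0.90 (limma, adjusted p = 0.0870), and no other call changed. Slide as a random block with 18 groups was not run, because each group lies on 1 slide, and the treatments of a tissue and day were joined for it after the data were seen, as were the settings without pool 8, with the table's names and with blood not normalized.

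With the set names of the authors' table, jejunum minus ileum was called for 2 genes at day 8, against 36.9% of all genes. The values were -1.41 for APOC3 and -4.64 for APOE. At day 55 it was -1.73 for APOA1, -2.21 for APOA4, -5.29 for APOC3 and -2.10 for MTTP. From day 8 to 55, 5 genes were called in jejunum, against 39.9% of all genes, with APOE at 2.50. In ileum 0 were called, against 2.10% of all genes, with MTTP at 0.16. From day 55 to 176 APOA1 was at 0.80, APOC3 at 2.27 and MTTP at 0.20 in jejunum, and APOE at -1.03 in ileum. The change of jejunum minus ileum from day 8 to 55 was -1.52 for APOA1, -1.87 for APOA4, -3.87 for APOC3, 3.25 for APOE and -1.94 for MTTP. From day 55 to 176 this change was called for 5 genes, against 51.6% of all genes, with APOA4 at 3.84 and MTTP at 3.36. From day 8 to 176 APOE was at 1.52.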

Other observations

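On the arrays of day 8, FABP6 was between 5.62 and 16.48 in the arrays labelled ileum and it was at 17.81 to 18.33 in ileum at day 55 and at 18.28 to 18.67 at day 176. In jejunum FABP6 was at 14.02 to 18.52 at day 55 and at 7.52 to 18.45 at day 176. The lowest values of day 176 were on arrays with lost spots, T2 pool 8 (7.52) and T3 pool 4 (12.10), and the next was 16.60. FABP6 rose between days 8 and 55 by 7.11 ± 1.07 in the arrays labelled ileum and by 6.10 ± 1.04 in jejunum (limma, adjusted p = 1.08e-07 and 2.34e-06). Neutrophil markers rose in ileum between days 55 and 176 in 4 of 4 genes tested, with a mean log2 signal of 5.57 to 10.75 at day 176 against 3.72 to 5.92 at day 55.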
